A study of Mus musculus with 10 samples.

Results

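Integrin chains are the subject here: Itgam, Itgax, Itgal and Itga4, which encode alpha chains, and Itgb1 and Itgb2, which encode beta chains. The 6 genes were taken by name from the first column of both deposited tables, out of 545 endogenous genes on the nCounter panel of mouse immune genes, where each target molecule is tagged with a coloured barcode that is counted directly, without sequencing. Hippocampal microglia, the resident macrophages of the brain, were sorted from male Balbc pups at postnatal day 14, with 5 control pups (numbered 1, 18, 40, 52 and 69) and 5 BDS pups (11, 17, 24, 38 and 59), all from different litters. BDS is brief daily separation: pups spent 15 min a day away from the dam, on a schedule given as postnatal days 1 to 21, so it was still running at collection. The same protocol text stands on every sample, no transgene is named in either group, and neither the handling of the control pups nor the markers used for the sort are given in the sources used here. Each pup was read in 1 lane. In bulk RNA of sorted cells, a change in the mix of cells and a change in RNA per cell cannot be told apart.

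An integrin is a membrane receptor built from 1 alpha and 1 beta chain, and neither chain works alone. On leukocytes Itgb2 (CD18) pairs with Itgam (CD11b) to form complement receptor 3, with Itgal (CD11a) to form LFA-1 and with Itgax (CD11c) to form complement receptor 4. Itgb1 (CD29) is the widely expressed beta chain that pairs with many alpha chains, Itga4, Itga5 and Itga6 among them, and binds matrix proteins such as fibronectin and laminin as well as the endothelial ligand Vcam1. In microglia, complement receptor 3 takes up targets coated with complement fragments, and CD11b is a usual surface marker for identifying the cells. Whether CD11b was among the markers of this sort is not given in the sources used here, so the part of the sort in the Itgam values was not tested.

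The promoters of Itgam and Itgb1 are shown because these 2 genes had the lowest and the highest fold change among the tested chains and because they differ in base composition. RefSeq (GRCm38.p6) gave a promoter window for 4 of the 6 genes, Itgam, Itgax, Itga4 and Itgb1, and the 250 bases before the annotated start are used. Capitals mark GAGGAA, a core bound by the myeloid factor PU.1, and the GC box GGGCGG, each searched on both strands (TTCCTC and CCGCCC on the other); the motifs do not overlap.
Itgam, chr7:128062390-128062639, plus strand: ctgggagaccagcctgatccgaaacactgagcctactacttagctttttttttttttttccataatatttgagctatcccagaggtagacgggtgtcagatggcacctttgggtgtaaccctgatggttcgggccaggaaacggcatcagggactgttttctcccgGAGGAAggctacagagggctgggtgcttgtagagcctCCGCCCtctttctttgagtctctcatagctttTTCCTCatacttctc
Itgb1, chr8:128685404-128685653, plus strand: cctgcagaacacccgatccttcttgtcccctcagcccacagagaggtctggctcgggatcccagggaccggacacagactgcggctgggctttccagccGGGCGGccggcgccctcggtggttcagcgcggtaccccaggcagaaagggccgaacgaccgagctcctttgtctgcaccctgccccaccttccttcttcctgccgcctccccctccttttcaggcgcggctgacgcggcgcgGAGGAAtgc
The Itgam window held 6 CpG, the median of all 32544 windows, and the Itgb1 window held 21, more than 83.5% of windows. GAGGAA or its complement stood at 2 places in the Itgam window and at 1 in the Itgb1 window, where 23.4% of all windows hold it, and the GC box at 1 place in each, where 33.0% do. Itgax and Itga4 had no GAGGAA. In the same assembly Itgax is the next protein-coding gene after Itgam on chromosome 7. The accession of the panel's probe matched the RefSeq gene for 6 of 6 chains.

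Itgam, Itgb1 and Itgb2 exceeded background in all 10 lanes, while Itgax, Itgal and Itga4 lay at or near it. The limit was each lane's mean of the 8 negative control probes plus 2 SD, and a gene was tested if it exceeded the limit in at least 4 lanes, which 283 of the 545 genes did. Of the 6 chains 3 were tested. Counts are given as normalized counts, raw counts divided by the lane's geometric mean of 6 housekeeping genes and rescaled. Lanes held between 76237 endogenous counts (control 52) and 968930 (BDS 17). BDS lanes were deeper on average: their log2 housekeeping mean averaged 9.79, against 8.55 in controls, a gap of 1.23. The groups overlapped in depth, as control 40 (802033 counts) was deeper than BDS 11, 24 and 59. None of the 283 genes (0%) passed edgeR's quasi-likelihood test at an adjusted p of 0.05, while 80 had an unadjusted p under 0.05 (28.3%) and DESeq2 called 25 (8.83%) after adjustment. At an adjusted p under 0.10 edgeR held 23 genes (8.13%), 2 of the 3 tested chains among them. Of the 3 tested chains 2 had a log2 fold change above 0, as did 55.8% of tested genes, and 0 had groups that did not overlap, which 4.59% of tested genes had.

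Itgam, the alpha chain of complement receptor 3, was lower in BDS lanes. Control lanes 1, 18, 40, 52 and 69 stood at 50514, 41639, 31925, 26010 and 37001 normalized counts, and BDS lanes 11, 17, 24, 38 and 59 at 26448, 22113, 27498, 22558 and 28053. All 5 BDS lanes lay below the control mean, and 2 of them (17 and 38) lay below every control lane. Control 52 lay within the BDS range, so the groups overlapped. Control lanes averaged 37417 ± 9352 (SD, n = 5) and BDS lanes 25334 ± 2802 (n = 5). The log2 fold change was -0.56 ± 0.18 (SE), a ratio of 0.68 (edgeR, adjusted p = 0.0968). At an adjusted p under 0.10 the fit held 4 lower genes (1.41% of those tested), Itgam included. Without control 40 the edgeR adjusted p was 0.0435, and over all alternatives it ran from 0.0435 to 0.398. Control 1 was the highest lane, and without it the log2 fold change was -0.43.

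Itgb1, the shared beta chain of the matrix-binding integrins, differed in the opposite direction. In control lanes 1, 18, 40, 52 and 69 it stood at 2389, 2555, 3512, 2320 and 2792 normalized counts, and in BDS lanes 11, 17, 24, 38 and 59 at 3000, 5009, 4427, 4585 and 4304. BDS lanes 17, 24, 38 and 59 exceeded every control lane, whereas BDS 11, the shallowest BDS lane, lay below control 40, the deepest control lane. Control lanes averaged 2714 ± 482 (SD, n = 5) and BDS lanes 4265 ± 756 (n = 5). This is 0.65 ± 0.19 (SE) on the log2 scale or a ratio of 1.57 (edgeR, adjusted p = 0.0709). In that direction 19 genes (6.71%) had an adjusted p under 0.10. The adjusted p was 0.0253 without control 40, 0.0298 without BDS 11 and 0.0148 by DESeq2 with all lanes, and ran from 0.0148 to 0.369 over all alternatives. With lane depth in the fit the log2 fold change was 0.43 ± 0.19, against -0.65 ± 0.21 for Itgam (edgeR adjusted p = 0.369 for both).

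Itgb2, the partner of Itgam, did not separate the groups. Control lanes 1, 18 and 40 stood at 510, 548 and 514 normalized counts, while the shallow control lanes 52 and 69 stood at 898 and 940. BDS lanes 11, 17, 24, 38 and 59 stood at 654, 951, 717, 828 and 779, between these 2 sets of controls except for BDS 17. Control lanes averaged 682 ± 217 (SD, n = 5) and BDS lanes 786 ± 113 (n = 5), and the difference of 0.22 ± 0.22 (SE, log2) was about the size of its error (edgeR adjusted p = 0.524). Controls 52 and 69, the lanes with the fewest counts, set this value: without both it was 0.59 ± 0.18 (edgeR adjusted p = 0.0948), and with lane depth in the fit it was 0.53 ± 0.24 (edgeR adjusted p = 0.369).

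**Figure D1:**
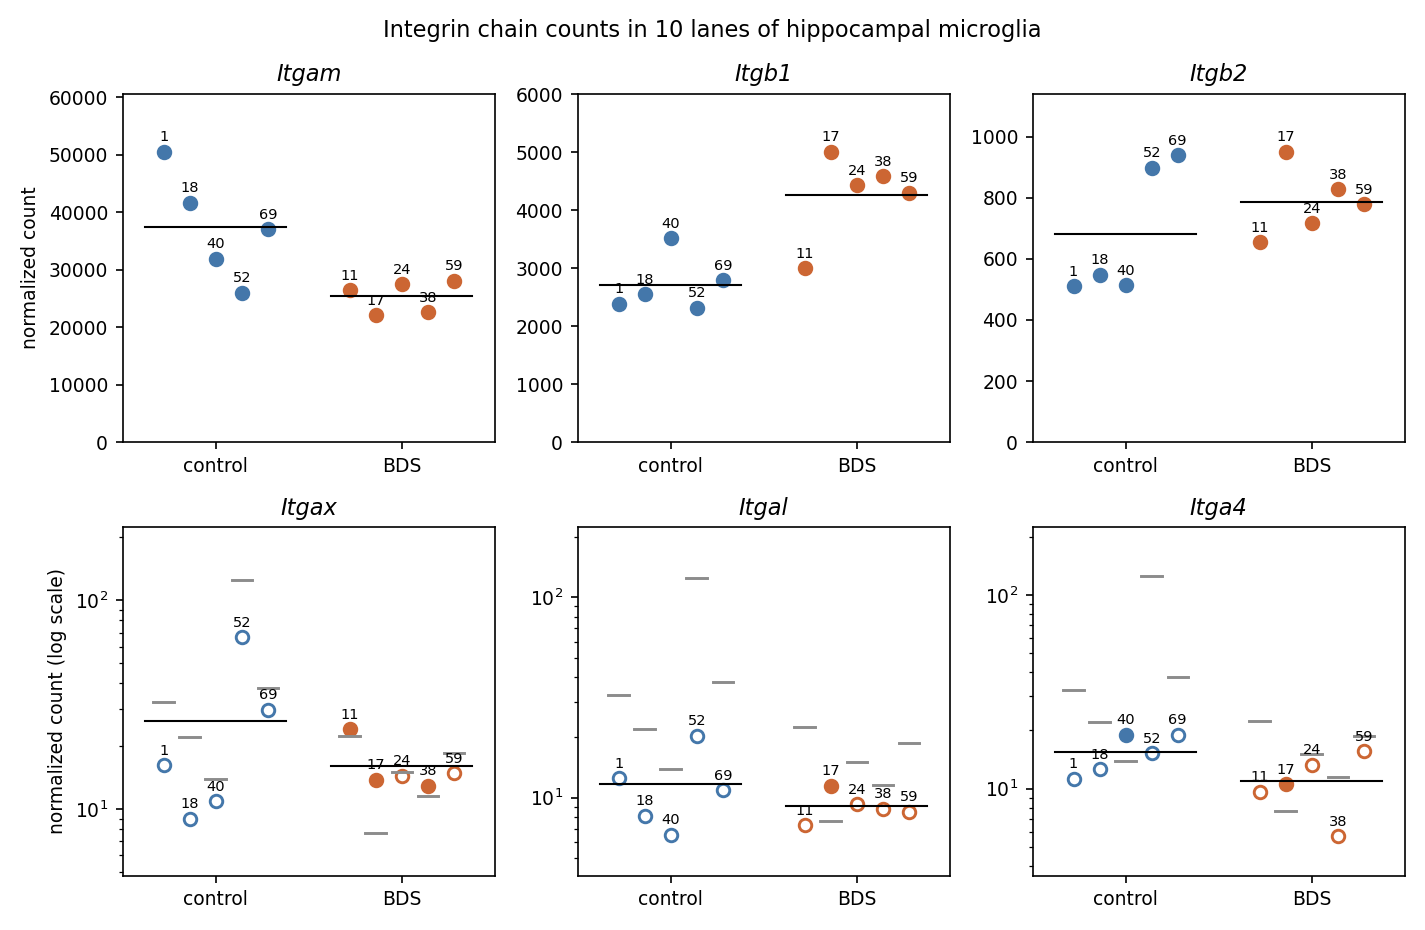
Normalized counts of the 6 integrin chains in each lane, on a linear axis for the upper row and a log axis for the lower row, with the pup's number at each point and a black line at the group mean. In the lower row grey bars mark the lane's background limit, also normalized, and open points lie below it: Itgam was lower and Itgb1 higher in BDS lanes, while Itgax, Itgal and Itga4 exceeded the limit in only 3, 1 and 2 lanes.

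The chains that define LFA-1 and complement receptor 4, and the alpha chain of the Vcam1 receptor, were barely detected. Raw counts of Itgax ran from 10 to 30 over the 10 lanes, where the limit ran from 13.9 to 26.3, and it exceeded the limit in BDS 11, 17 and 38. Those of Itgal ran from 4 to 25, above the limit in BDS 17 alone, and those of Itga4 from 3 to 35, above it in control 40 and BDS 17. Itgax, though next to Itgam in the genome, was thus above background in 3 lanes where Itgam was in 10. No fold change is given for these 3 chains. Normalized values of a gene at background move with depth: control 52, the lane with the fewest counts, held 13 raw counts of Itgax but 66.3 normalized counts, the highest of any lane, and its limit was 124 on the same scale. The authors' deposited table puts Itgax above background in 40% of samples, Itga4 in 30% and Itgal in 10%. For Itgax and Itga4 this is more than the 3 and 2 of 10 lanes found here. The filter used here was 40% of lanes, which Itgax would meet by the authors' share, so its untested status depends on the limit.

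That table gives the same order for the detected chains. The fold change (BDS over control) in the authors' deposited table is 0.60 for Itgam with a p of 0.0080, not adjusted. For Itgb1 the authors' deposited table gives 1.39 with a p of 0.0081, and for Itgb2 1.00 with 0.9803. Itga4 has a p of 0.0297 and a fold change of 0.63 in the authors' deposited table, from means of 23 and 15 that lie at the background. The authors' values equal raw counts divided by the geometric mean of 5 housekeeping genes, all but Sdha: the SD over lanes of the log2 difference was 3e-05 for that set and 0.114 or more for every other set of 5 or all 6, over 61 genes with more than 200 raw counts in every lane. With these 5 genes edgeR gave log2 fold changes of -0.74 for Itgam, 0.47 for Itgb1 and 0.01 for Itgb2.

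Scaling moved the 3 detected chains together, so their changes are also given relative to the panel. Of the genes with an unadjusted p under 0.05, 55 were higher (19.4%) and 25 lower (8.83%) with 6 housekeeping genes, 36 and 39 with TMM, 25 and 49 without Sdha and 125 and 0 with positive controls alone. The median log2 fold change of all 283 genes was 0.09, -0.04, -0.09 and 1.35 under these scalings. Against that median Itgam lay at -0.65, -0.66, -0.65 and -0.75, and Itgb1 at 0.56, 0.56, 0.56 and 0.45. Itgam was therefore lower than the median gene, and Itgb1 higher, under each of them, although the sign of Itgam itself turned to 0.60 with positive controls alone. The scalings use the same counts and differ only in a factor per lane, which shifts all genes by nearly the same amount. The distances to the median could thus hardly differ, and their likeness is no separate support. The median over the 3 tested chains was 0.22.

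**Figure D2:**
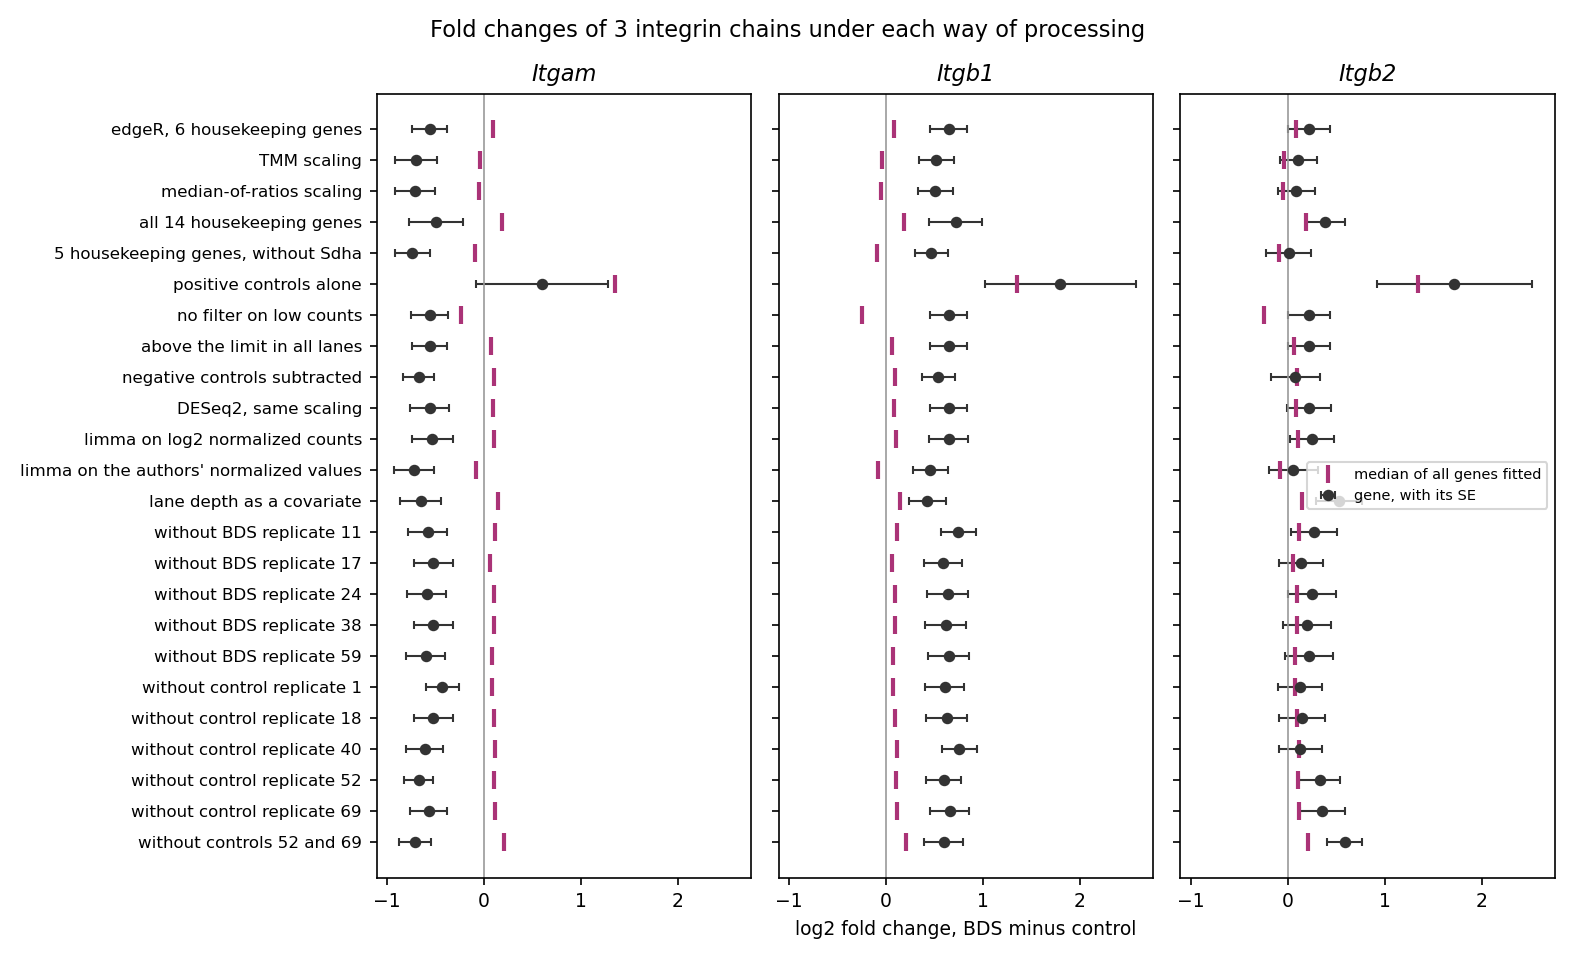
Log2 fold change (BDS minus control) of Itgam, Itgb1 and Itgb2 under each way of processing, with bars for the SE and a coloured mark for the median of all genes in that fit. Itgam lies left of the median mark and Itgb1 right of it in every row, and Itgb2 ranges from 0.01 without Sdha to 1.72 with positive controls alone.

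The ratio of 2 chains within a lane needs no housekeeping gene, and asks whether partner chains differed by unequal amounts. Probes differ in how well they capture their target, so a change of a ratio between groups can be read and the ratio itself cannot. Raw counts of Itgam per count of Itgb2 were 99.1, 76.0, 62.1, 29.0 and 39.4 in control lanes 1, 18, 40, 52 and 69, and 40.4, 23.3, 38.4, 27.2 and 36.0 in BDS lanes 11, 17, 24, 38 and 59. BDS lanes 17 and 38 lay below every control, BDS 24 and 59 between controls 52 and 69, and BDS 11 just above control 69. The mean log2 ratio was 5.80 ± 0.72 (SD, n = 5) in control and 5.02 ± 0.34 (n = 5) in BDS lanes. The difference of -0.78 missed the threshold (exact two-sided permutation p = 0.0635, 0.0847 adjusted over the 4 partner ratios tested). The groups overlapped, but the difference was larger than the SD of either group. Missing the threshold with so few lanes does not show that the groups were alike. The ratio also followed the split of Itgb2 among the controls: the shallow controls 52 and 69 had the 2 lowest control values.

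Against Itgb1, Itgam separated the groups. Counts of Itgam per count of Itgb1 were 21.1, 16.3, 9.09, 11.2 and 13.3 in control lanes 1, 18, 40, 52 and 69, and 8.82, 4.41, 6.21, 4.92 and 6.52 in BDS lanes 11, 17, 24, 38 and 59. Every BDS lane lay below every control lane, though BDS 11 and control 40 were close. The mean log2 ratio was 3.77 ± 0.47 (SD, n = 5) against 2.58 ± 0.39 (n = 5), a difference of -1.18 or a ratio of 0.44. This pair is no heterodimer and was chosen after its values were seen, so it is described with no test. Among all 39903 ratios of 2 tested genes, 4.12% showed no overlap of the groups.

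Itgb1 was compared in the same way with its alpha partners. Itga5, of the fibronectin receptor, had similar ratios to Itgb1 in both groups, with log2 means of -4.03 ± 0.32 and -4.10 ± 0.14 (SD, n = 5 each). Itga6, of the laminin receptor, was lower against Itgb1 in BDS lanes, at -0.01 ± 0.13 against 0.35 ± 0.24, and 4 of 5 BDS lanes lay below every control. These ratios too were chosen after their values were seen and carry no test. The ratio of Itga4 to Itgb1 did not overlap between groups (difference -1.19 on the log2 scale, exact two-sided permutation p = 0.00794, the smallest that 5 against 5 lanes allow, 0.0317 adjusted over the 4 ratios). It rests on an alpha chain above background in 2 lanes, and with negative controls subtracted the adjusted exact permutation p was 0.370. The share of 4.12% covers ratios of tested genes only, so no share stands beside this one. Counts at background need not rise with depth, and BDS lanes were deeper on average. The part of depth in this ratio was not tested. The ratios of Itgal and Itgax to Itgb2 (differences -0.52 and -0.60, exact permutation p = 0.0397 and 0.222, adjusted 0.0794 and 0.222) also rest on counts near background.

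**Figure D3:**
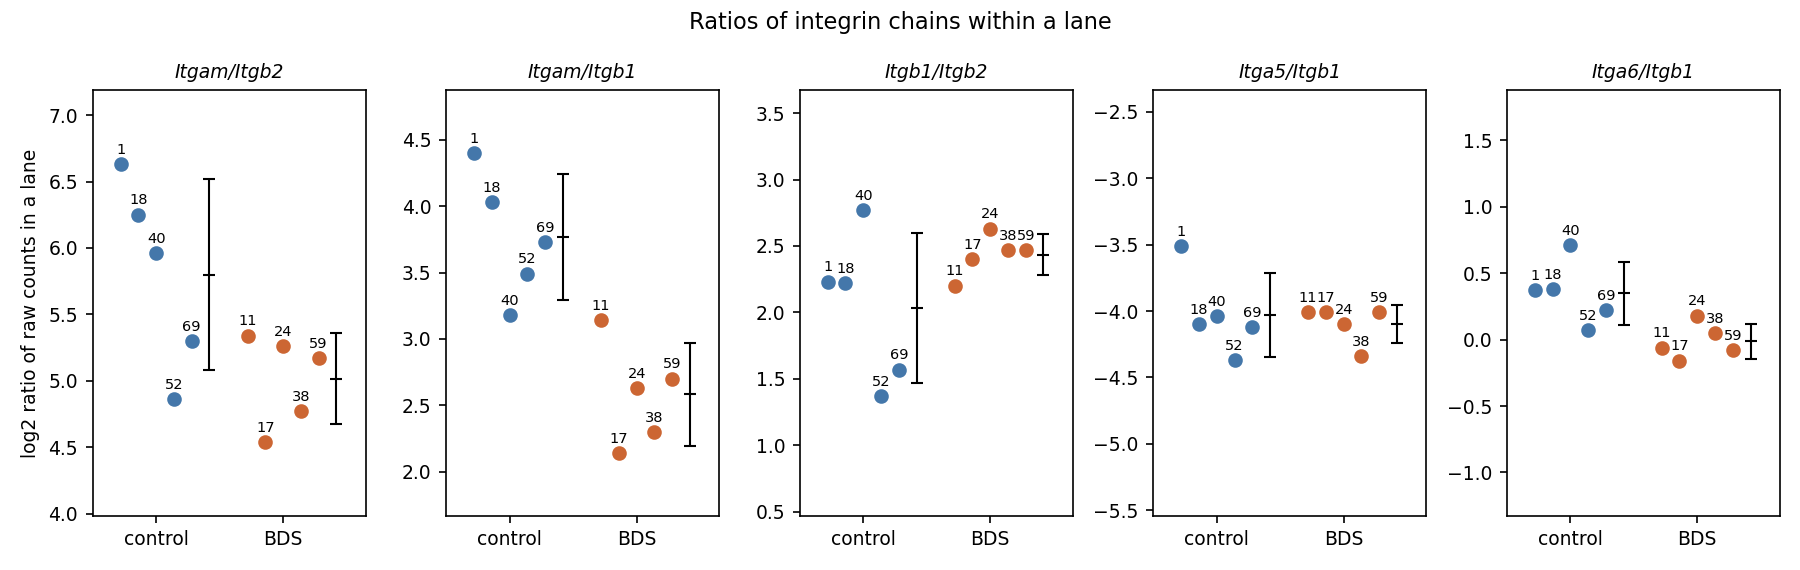
Log2 ratio of the raw counts of 2 integrin chains within each lane, with pup numbers at the points and the group mean with its SD beside them, each panel spanning the same length of the log2 axis. The groups do not overlap for Itgam over Itgb1 and overlap in the other 4 panels, and controls 52 and 69 have the lowest control values of both ratios to Itgb2.

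As a share of endogenous counts, a scale that uses no housekeeping gene, the 6 chains together took 9.51% ± 2.12 (SD, n = 5) in control and 6.92% ± 0.729 (n = 5) in BDS lanes, of which Itgam took 8.71% ± 2.19 and 5.77% ± 0.804. The 5 chains other than Itgam took 0.802% ± 0.0929 and 1.15% ± 0.168. Itgb1 alone took 0.631% ± 0.1002 in control and 0.965% ± 0.152 in BDS lanes, with control 40 the highest control at 0.806%. Itgb2 took 0.159% ± 0.0505 and 0.178% ± 0.0212.

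The panel holds 3 other integrin chains, all of which were tested, and 0 passed. Itga5 stood at 169 ± 43.0 normalized counts in control and 249 ± 46.4 in BDS lanes (SD, n = 5 each), and 4 of 5 BDS lanes exceeded every control. The log2 difference was 0.54 ± 0.22 (SE; edgeR, adjusted p = 0.149), or 0.26 with lane depth in the fit. Itga6 was at 0.25 ± 0.23 and turned to -0.14 with lane depth. Without control 40 it was at 0.48, and without control 52 at 0.14. The platelet chain Itga2b met the filter through 3 BDS lanes (17, 24 and 38, the deepest of that group) and control 40, the deepest control, so its value of 0.49 ± 0.44 rests on a filter passed mainly in BDS lanes and is not read as a direction. It was 0.87 without control 52 and 0.26 without control 1.

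Ligands of these receptors were mostly near background in the sorted cells. Of 16 ligands listed 7 were on the panel and 2 were tested, with 0 passing in either direction (0% of the 283 did). Icam1, a ligand of LFA-1 and complement receptor 3, was at 1412 ± 421 normalized counts in control and 1315 ± 290 in BDS lanes (SD, n = 5 each), or -0.11 ± 0.23 (SE) as a log2 difference. Icam4 was at -0.65 ± 0.28 (edgeR, adjusted p = 0.156), or -0.29 with lane depth. Vcam1, Fn1, C3, Icam2 and Icam5 exceeded the limit in 0, 3, 1, 1 and 1 lanes, so the ligands of Itga4 and the complement ligand of Itgam were mostly below background.

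Among membrane partners 4 of 5 panel genes were tested, 0 passed, and 1 was higher and 3 lower in BDS lanes, with a median log2 fold change of -0.22. The tetraspanin Cd81, which associates with Itgb1 integrins, was at -0.45 ± 0.17 (edgeR adjusted p = 0.129), opposite to Itgb1 and on the side of Itgam. The tetraspanin Cd82 was at 0.61 ± 0.27 (edgeR adjusted p = 0.156), but at 0.13 with lane depth. Cd9 was at -0.20 ± 0.23, and turned to 0.18 with lane depth.

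Of the kinases and adaptors that act downstream of integrins 9 of 11 panel genes were tested, 5 higher and 4 lower, with 0 passing and a median of 0.30 against 0.09 for all genes. The Src-family kinase Fyn was at 0.96 ± 0.25 and the adaptor Lcp2 (SLP-76) at 0.86 ± 0.23 (edgeR adjusted p = 0.0643 for both), or 0.93 and 0.78 with lane depth. Lcp2 groups did not overlap, as in 3.53% of tested genes in that direction. Src itself was at -0.61 ± 0.22 (edgeR adjusted p = 0.126). The focal adhesion kinase gene Ptk2 was at 0.46 ± 0.33. Syk, which integrins engage through the adaptor chains Tyrobp and Fcer1g, was at 0.35 ± 0.23, or 0.01 with lane depth. Those adaptors were at -0.23 ± 0.29 and -0.21 ± 0.21, and turned to 0.39 and 0.16 with lane depth. Of 7 other adhesion genes on the panel 3 were tested: Pecam1 at -0.56 ± 0.24, Cd99 at -0.56 ± 0.35 and the selectin ligand Selplg at 0.39 ± 0.27, none of which passed. With lane depth Cd99 turned to 0.10, while Pecam1 was at -0.85 and Selplg at 0.54. Cd44, a hyaluronan receptor, exceeded the limit in 0 lanes.

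**Figure D4:**
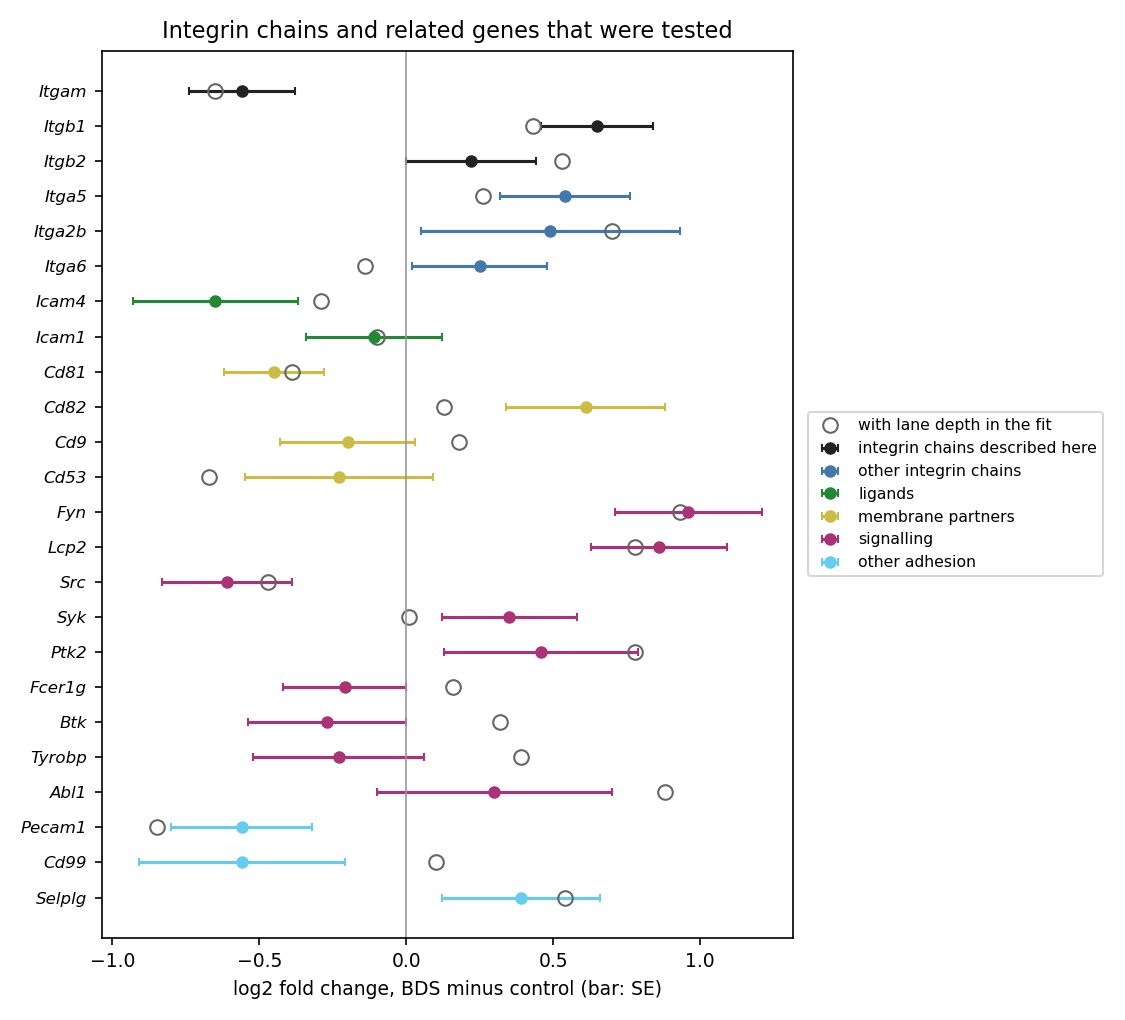
Log2 fold change (BDS minus control) of the tested integrin chains and of the tested genes of 5 related lists, with SE bars, and open circles for the value with lane depth in the fit. Itgam and Itgb1 lie on opposite sides of 0 with and without lane depth, Fyn and Lcp2 lie between 0.78 and 0.96, and Itga6, Cd9, Fcer1g, Btk, Tyrobp and Cd99 cross 0.

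Lane profiles were then compared, as the root-mean-square difference over the 10 lanes between log2 normalized counts, each gene centred on its own mean. The genes nearest to Itgam were Cd81 (0.154), Ctnnb1 (0.155) and Ifnar2 (0.192), where the median over tested genes was 0.628. The genes nearest to Itgb1 were Irak4 (0.109), Stat5a (0.115) and Atg16l1 (0.130), against a median of 0.509. Itgb2 was nearest to Irf5 (0.206), Ifngr2 (0.222) and B2m (0.223). Itgam was not among the 3 nearest genes of its partner Itgb2. The nearest genes were Tlr2 (0.205) for Itgax, Fcer1g (0.216) for Itgal and Cradd (0.355) for Itga4. These 3 chains lay at or near background, and the part of background divided by depth in their profiles was not tested. All profiles share the lanes and their scale factors.

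Markers of microglia and of other cells were read beside these values, since monocytes and neutrophils also carry Itgam. All 9 microglia markers on the panel were tested, and their summed share was 22.4% to 33.4% of counts in control and 28.9% to 34.5% in BDS lanes. Of 5 monocyte or border macrophage markers 1 was tested, the chemokine receptor Ccr2, which was at 0.59 ± 0.23 (edgeR adjusted p = 0.137). Within the microglia list Cx3cr1, the fractalkine receptor, was lowest at -0.63 ± 0.23 and C1qa, a complement C1q chain, highest at 0.76 ± 0.20 (edgeR adjusted p = 0.126 and 0.0643). Csf1r, Trem2, Tgfbr1, Ctss and Irf8 were at 0.17, 0.28, 0.40, 0.48 and 0.50, and C1qb and Tgfbr2 at -0.03 and -0.35. Microglia genes thus lay on both sides of 0, most of them above it. The monocyte list's summed share was 0.0218% to 0.0643% in control and 0.0267% to 0.0367% in BDS lanes, Cd36 exceeded the limit in 2 lanes, and Cd163, Msr1 and Marco did in 0. Of 6 neutrophil markers 0 were tested, Cxcr2 exceeded the limit in 3 lanes with up to 67 raw counts, S100a8 and S100a9 in 1 lane each and the other three in 0, and the summed share was 0.00748% to 0.0656% and 0.00858% to 0.0132%. Lymphocyte lists held a few detected genes.

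Of 12 T cell markers 1 was tested, the cytokine receptor gene Il7r, above the limit in 10 lanes at a log2 fold change of -0.01 ± 0.32. The T cell receptor genes Cd3d and Cd3e exceeded the limit in 0 lanes, Cd5 in 3 and Cd4 and Lck in 2 each, and the summed share, 0.228% to 0.512% in control and 0.223% to 0.390% in BDS lanes, included Il7r with up to 3944 raw counts. Of 8 B cell markers 2 were tested, Blnk at 0.40 ± 0.20 and Cd79b at -0.14 ± 0.22, with a summed share of 0.230% to 0.341% and 0.312% to 0.415%. The adaptor Blnk and the receptor chain Cd79b exceeded the limit in 10 lanes each. Of 6 NK cell markers 2 were tested, Klrk1 at -0.06 ± 0.24 and Prf1 at 0.33 ± 0.35, with a summed share of 0.0239% to 0.0394% and 0.0221% to 0.0310%. Of 5 dendritic cell markers 2 were tested, Cd74 at 1.10 ± 0.51 and H2-Ab1 at -0.16 ± 0.20, with a summed share of 0.0959% to 0.157% and 0.0903% to 0.133%. Both belong to antigen presentation by class II molecules.

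Endothelial cells carry Itgb1, Itga5 and Itga6 as well. Of 4 endothelial markers 3 were tested, and the summed share was 0.186% to 0.396% in control and 0.213% to 0.260% in BDS lanes. The junction gene Cdh5 was at 0.97 ± 0.37 (edgeR adjusted p = 0.129), whereas Pecam1 was at -0.56 ± 0.24 and Cd34 at -0.42 ± 0.24 (edgeR adjusted p = 0.156 and 0.258), on both sides of 0. Mbp, of myelin, was at -0.15 ± 0.28. The part of any of these cells in the integrin values was not tested.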

How the data were processed

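Microglia came from a Percoll gradient and cell sorting, and 2 ng of RNA per pup went through reverse transcription and 5 PCR rounds before hybridization, per the labels' protocols. The deposited raw table holds barcode counts per probe, not normalized. The authors' other deposited table holds scores (normalized counts, rounded), group means, a percent of samples above background, a fold change ratio and a p-value headed as a t-test, all copied as they stand.

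The offset in edgeR 4.0.16 (R 4.3.3) was the geometric mean of the 6 housekeeping genes the series' text names (Alas1, Gapdh, Oaz1, Polr1b, Sdha and Tbp), although the same text speaks of 5. Its quasi-likelihood F test was two-sided, with no covariate and Benjamini-Hochberg adjustment over 283 genes. An SE is the size of the log2 fold change divided by the root of the F statistic. Profiles use a pseudocount of 1. Ratios of chains use raw counts and an exact permutation over 252 assignments. DESeq2 1.42.0 and limma 3.58.1 served as alternatives, and the edgeR code was checked on simulated counts. As litters differ, a pup is the replicate. No pair of lanes was alike within sampling noise (chi-square per degree of freedom 22.8 or more). Amplified molecules carry no identifiers.

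The chains, lists and tests were chosen with earlier results of these data known. By rule the text names the 6 chains, the 3 other chains on the panel, the 3 nearest profiles of each chain and the 3 tested genes with the smallest p of each list. The other list and marker genes, and the ratios Itgam, Itga5 and Itga6 to Itgb1 and Itgb1 to Itgb2, were picked after their values were seen.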

Additional observations from a re-analysis of the deposited data

Results flagged for a closer look

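Of 32 groups of 5 values examined for a lane far from the other four, 4 had one, where chance gives about 1 in 20. The groups are not independent, as normalized counts and shares of a gene come from the same raw counts. The 4 are therefore not read as an excess. Itgb1 took 0.806% of endogenous counts in control 40, the deepest control lane, far above the other controls. Itgax took 0.0171% in control 52, far above the other controls, on 13 raw counts that lay below that lane's limit. Itgax in BDS 11 stood far above the other BDS lanes both as a normalized count (24.2) and as a share (0.00585%), on 20 raw counts against a limit of 18.6.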

How the results depend on the processing

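The count of genes at an adjusted p under 0.05, 0 with edgeR and 6 housekeeping genes, was 34 with positive controls alone, 10 among genes above the limit in all lanes, 25 with DESeq2 and 0 to 48 with 1 lane left out. At an unadjusted p under 0.05 it was 125 with positive controls alone, 139 with no filter, 36 with lane depth in the fit and 45 to 108 with 1 lane left out, in place of 80. The cause of these shifts was not tested. Itgam kept its direction under 22 of 23 alternatives and was at 0.60 with positive controls alone, which lift the median gene to 1.35; with 1 lane left out it ran from -0.67 to -0.43. Itgb1 kept its direction under all 23, passed with DESeq2 (0.65), and ran from 0.59 to 0.76 with 1 lane left out. Itgb2 was positive under all 23 and passed under none. With negative controls subtracted the log2 ratio of Itgal to Itgb2 turned to 0.34 and that of Itgax to 0.74, and that of Itga4 to Itgb1 was -1.13 and no longer passed. A pseudocount of 20 put Itgal to Itgb2 at -1.11, past the threshold. That addition is close to the highest raw count of Itgal, which ran from 4 to 25, so the value is not read as a change of Itgal. The part of lane depth in it was not tested. The ratio of Itga4 to Itgb1 was -1.02 without controls 52 and 69, and -1.33 to -0.94 with 1 lane left out. Its exact permutation p, adjusted, was 0.0635 each time a single lane was left out. The smallest unadjusted p that 9 lanes allow is 0.0159. The ratio of Itgam to Itgb2 stayed negative and above the threshold in all 14 alternatives. In those that kept all lanes its adjusted exact permutation p ran from 0.0847 to 0.254. With lanes left out fewer assignments remain, so missing the threshold there does not show that the groups were alike. Without controls 52 and 69 the log2 difference was -1.26 (adjusted exact permutation p = 0.0714). There every control ratio, 62.1 or more, exceeded every BDS ratio, 40.4 or less. Controls 52 and 69 held the lowest control ratios, 29.0 and 39.4, so leaving them out set this separation. It is not read as a result. Itgax, Itgal and Itga4 had 13, 4 and 3 raw counts in control 52, the lane with the fewest counts, below its limit of 24.4. In BDS 17, the deepest lane, they had 30, 25 and 23, above its limit of 16.7. Low expression was not set apart from low depth. No paired analysis was possible because the groups share no pup number.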
